A study of Mus musculus with 4 samples.

Results

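The genes described here are 41 mouse genes that mark macrophages, among them Kupffer cells, the resident macrophages of the liver. They were chosen by gene symbol, and all 41 were found among the 18373 genes of the deposited table. By their known expression they fall into 4 classes: 5 Kupffer-restricted genes, 17 pan-macrophage genes, 13 pan-leukocyte genes, and 6 genes that endothelial and other liver cells express as well. The samples were 4 RNA-seq libraries of primary liver sinusoidal endothelial cells (LSEC) from 8-week-old Balb/c mice, 2 labelled NC (a control siRNA) and 2 labelled si*Airn* (siRNA against the long non-coding RNA *Airn*). The cells were selected with magnetic beads that bind the endothelial antigen CD146, cultured for 24 h, transfected for 48 h and labelled as day 3 cells. The question of the design is how the transcriptome of LSEC differs after si*Airn*. Which si*Airn* sequence each library received is not settled by the labels, which call both siAirn1 while the treatment text names more than a single siRNA. The replicates are labelled as biological, without saying whether they came from separate mice, so the p-values measure the spread between these libraries only.

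Kupffer cells sit inside the liver sinusoid, against the endothelium, where they take up particles, opsonized microbes and dying cells through scavenger, complement and Fc receptors. Macrophages as a lineage need the transcription factor PU.1 and signalling by the CSF1 receptor, while liver residence adds a further set of genes such as *Clec4f*, *Vsig4*, *Marco*, *Cd5l* and *Timd4*. LSEC share scavenging and Fc receptor functions with Kupffer cells, and LSEC preparations can hold macrophages, so macrophage transcripts in such a preparation may come from more than 1 cell type. In bulk RNA, fewer cells of a type and less RNA of a gene per cell cannot be told apart.

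Each library held between 17308382 and 18371959 counts. *Airn* had 7 and 3 counts in NC and 11 and 9 counts in the libraries labelled si*Airn*. These counts do not show a fall of the targeted RNA and are too few to check the labels, so the text speaks of the libraries labelled si*Airn*. LSEC markers were present in every library: *Stab2* lay between 350 and 475 CPM (counts scaled to the library total) and *Stab1* between 424 and 658 CPM. The 13 LSEC markers were themselves lower in the libraries labelled si*Airn*, with 12 of 13 past an adjusted p of 0.05 and a median log2 fold change of -0.69. Among 13 pan-endothelial markers, 9 were called lower by the same rule (median of the 13 -0.50), and their summed level went from 12077 and 11465 CPM in NC to 8820 and 7696 CPM.

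Of the members, 37 passed the filter on low counts and 4 did not. The filtered genes were *Timd4* and *Cd163*, receptors for phosphatidylserine and for haemoglobin-haptoglobin on resident macrophages, and *Cx3cr1* and *Ccr2*, chemokine receptors of monocytes. *Timd4* had 2 and 0 counts in NC and 3 and 0 counts in the libraries labelled si*Airn*. *Cd163* had 2, 4, 4 and 3 counts in the same order, *Cx3cr1* had 2, 5, 4 and 9, and *Ccr2* had 7, 1, 4 and 3. A library with 0 counts still allows up to 3 counts, between 0.166 and 0.175 CPM. None of the 4 can be compared between groups at this depth. Of the 37 members that passed, 36 had at least 10 counts in every library, and the same 19 genes were called with that stricter filter.

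In the following, the difference between groups is the log2 fold change of the libraries labelled si*Airn* over NC (n = 2 each), with its standard error (SE), from edgeR's quasi-likelihood test, and a gene is called when its Benjamini-Hochberg adjusted p over the 13628 genes tested is under 0.05. Of the 37 members tested, 19 were called lower and 0 were called higher. Among all genes tested, 8.56% were called lower and 8.27% higher. No member was higher at an unadjusted p under 0.05 by this test, and 27 were lower. Over all 13628 genes tested, 4631 were under that threshold, counting both directions. The median log2 fold change of the members was -0.60, a fold of 0.661, against 0.0013 over all genes tested. Both libraries labelled si*Airn* lay below both NC libraries for 31 of the 37 members, which holds for 31.9% of all genes tested. By a fold change over 1.4 with an unadjusted p under 0.05, 24 members were lower, against 4.72% of all genes tested.

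The classes are given separately. Among 3 Kupffer-restricted genes tested, 1 was called lower, with a median log2 fold change of -0.84. Pan-macrophage genes were called lower in 10 of 15 cases (median -0.78), pan-leukocyte genes in 5 of 13 (median -0.56) and broadly expressed genes in 3 of 6 (median -0.28). These medians describe the classes, and the differences between classes were not tested.

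**Figure D1:**
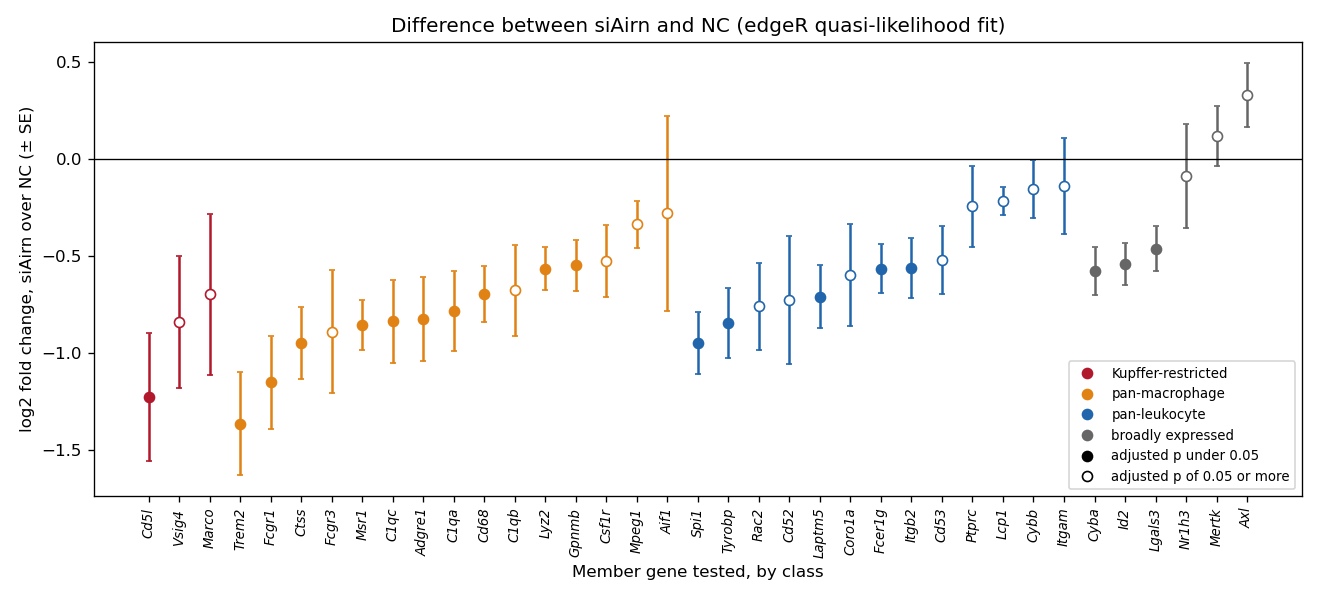
Log2 fold change of each of the 37 members tested, libraries labelled siAirn over NC (2 libraries each), with its standard error from the edgeR fit. Members are grouped by class and filled points have an adjusted p under 0.05. All 19 filled points lie below 0, from *Trem2* at -1.36 to *Lgals3* at -0.46.

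The calls among the members needed both NC libraries, and so did the calls over all genes. Without an NC library, the spread came from the libraries labelled si*Airn* alone. Such a fit cannot show whether the members' calls depended on the omitted library. In size, the members' median log2 fold change went from -0.60 to -0.71 when NC replicate 1 was omitted. It went to -0.49 when NC replicate 2 was omitted. Without si*Airn* replicate 1, 6 members outside the 19 were called: *Csf1r*, *C1qb*, *Mpeg1*, *Rac2* and *Cd53* lower and *Axl* higher, while *Lgals3* was no longer called. The direction depended less on single libraries, since between 33 and 36 of the 37 members had a negative log2 fold change whichever library was left out. When counts were corrected for the GC content and length of transcripts, 8 of the 19 calls were kept: *Msr1*, *Id2*, *Trem2*, *Spi1*, *Fcgr1*, *Ctss*, *Cd68* and *Gpnmb*. In that fit 5.29% of all genes were called lower, against 8.56% before, and the median of the members was -0.53. Some calls were lost with little change in size, as for *Adgre1* (-0.86, edgeR adjusted p = 0.0548) and *Cd5l* (-1.11, edgeR adjusted p = 0.0757), while *Lgals3* (-0.27, edgeR adjusted p = 0.118) and *Cyba* (-0.34, edgeR adjusted p = 0.0687) also became smaller by over 1.5 times. DESeq2, by which 6.70% of all genes were called lower, called 12 members, all among the 19. It put 2 of the 19 (*Cd5l* and *Itgb2*) above the threshold and gave no adjusted p for the other 5. In that fit 16 of the 37 members and 3638 of the 13628 genes had no adjusted p. These genes are included in the total behind the 6.70%.

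*Spi1*, the gene of PU.1, is itself a member and was called lower, so the members' promoters were searched for the core letters that PU.1 recognizes. RefSeq promoters (GRCm38.p6, 250 bases before to 50 bases after the start) were at hand for 32 of the 41 members. The letters GAGGAA occur on either strand in 18 of these 32 (56.2%), against 31.3% of 27025 genes. Among the members with a promoter, they are in 7 of 13 called lower and in 11 of 15 tested and not called. The longer form GAGGAAGT, which contains the former, is in 3 of 32 members (9.38%) and 3.69% of all genes. A match describes the letters and is not a binding site, and these shares were not tested.

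The promoters of the 4 members with the largest falls that have an entry are shown, since they carry the largest measured differences and span a lipid receptor, a secreted protein, an Fc receptor and a protease. GAGGAA is in capitals, or TTCCTC where it lies on the opposite strand. They are *Trem2* (chr17:48346151-48346450, plus strand), *Cd5l* (chr3:87357631-87357930, plus strand), *Fcgr1* (chr3:96293920-96294219, minus strand) and *Ctss* (chr3:95526536-95526835, plus strand), each written 5′ to 3′ on the strand of its gene.
Trem2: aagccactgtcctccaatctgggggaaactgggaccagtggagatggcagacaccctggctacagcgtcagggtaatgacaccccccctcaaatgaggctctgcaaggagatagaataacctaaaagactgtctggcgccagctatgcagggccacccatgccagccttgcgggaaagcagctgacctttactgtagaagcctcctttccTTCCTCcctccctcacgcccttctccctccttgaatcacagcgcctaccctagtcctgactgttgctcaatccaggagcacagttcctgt
Cd5l: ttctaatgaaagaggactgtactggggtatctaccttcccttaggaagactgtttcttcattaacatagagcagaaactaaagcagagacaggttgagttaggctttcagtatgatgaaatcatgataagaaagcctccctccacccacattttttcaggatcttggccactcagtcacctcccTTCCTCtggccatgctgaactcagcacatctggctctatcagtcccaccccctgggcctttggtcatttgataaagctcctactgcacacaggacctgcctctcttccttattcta
Fcgr1: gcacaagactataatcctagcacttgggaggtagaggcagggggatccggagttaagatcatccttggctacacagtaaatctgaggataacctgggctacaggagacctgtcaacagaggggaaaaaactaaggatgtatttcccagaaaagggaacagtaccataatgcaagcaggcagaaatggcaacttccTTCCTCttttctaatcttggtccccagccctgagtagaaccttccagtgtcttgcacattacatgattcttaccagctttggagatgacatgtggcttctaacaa
Ctss: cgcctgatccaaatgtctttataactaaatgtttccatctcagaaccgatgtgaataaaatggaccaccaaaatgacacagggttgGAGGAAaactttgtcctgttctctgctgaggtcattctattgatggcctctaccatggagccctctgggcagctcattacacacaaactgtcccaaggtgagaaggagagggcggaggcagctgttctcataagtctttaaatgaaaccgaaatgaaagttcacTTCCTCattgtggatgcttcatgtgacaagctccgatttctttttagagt
Relative to the start site, the letters begin at -40 in *Trem2*, -66 in *Cd5l* and -55 in *Fcgr1*. In *Ctss* they occur at -164 and again at position 1. The fall of these genes was -1.36, -1.23, -1.15 and -0.95 in the same order. The promoters of the called members *Lyz2*, *Fcer1g*, *Gpnmb*, *Id2*, *Lgals3* and *Cyba* lack the letters. Any relation between the letters and the falls was not tested.

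Per length, the members span a wide range. In NC the mean FPKM, a level scaled to transcript length and library total, was highest for *Lgals3* (191), *Cyba* (121), *Lyz2* (110) and *Axl* (76.2), of which *Lyz2* alone belongs to a macrophage class. The pan-macrophage genes *Cd68* (40.3 FPKM), *Msr1* (40.0) and *Ctss* (33.9) exceeded at least 84.1% of all genes, while *Csf1r* (3.88) and *Adgre1* (1.87) lay at 49.3% and 42.0%. *Ptprc*, the pan-leukocyte tyrosine phosphatase CD45, was at 0.805 FPKM. For scale, the endothelial cadherin gene *Cdh5* was at 631 FPKM in NC.

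**Figure D2:**
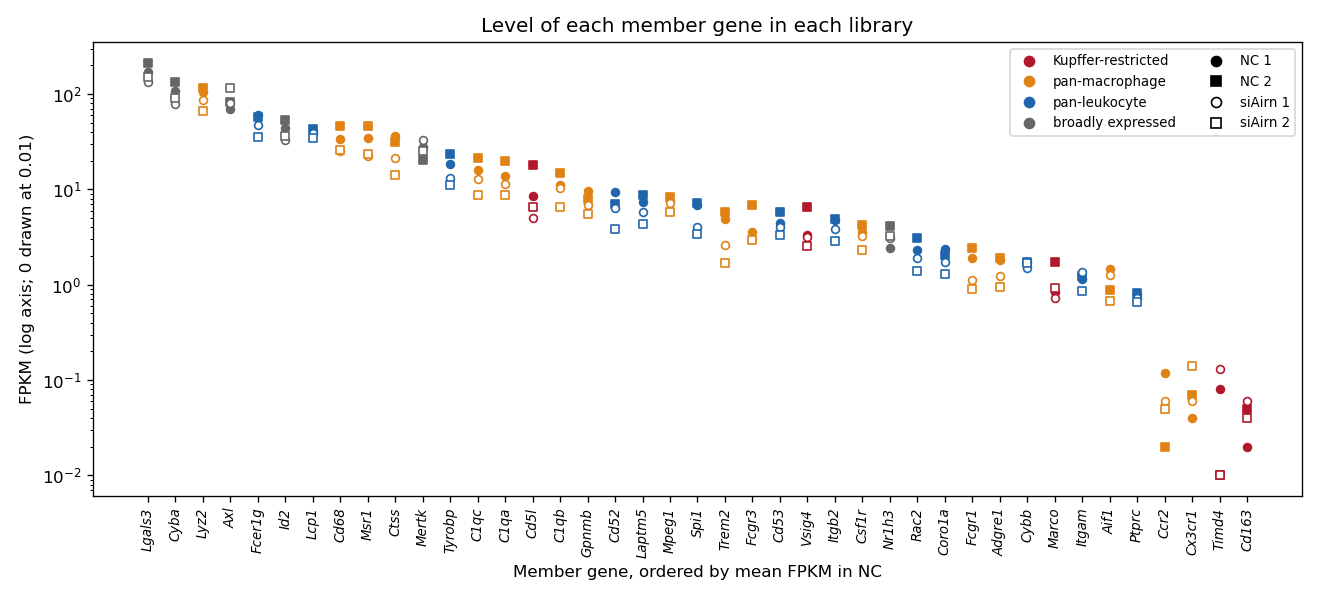
Level of the 41 members in each library, in FPKM on a log axis, ordered by the mean of the NC libraries. Filled symbols are NC and open symbols the libraries labelled siAirn, with circles for replicate 1, squares for replicate 2 and values of 0 drawn at 0.01. The 4 members that failed the filter lie at the right, below the other members.

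The Kupffer-restricted genes tested showed a gap between the NC libraries. *Cd5l* encodes a protein that macrophages secrete and that inhibits apoptosis. It was at 16.6 and 34.8 CPM in NC replicates 1 and 2, and at 9.51 and 12.5 CPM in the libraries labelled si*Airn*. The groups did not overlap, but NC replicate 2 stood well above the other 3 libraries. The difference was -1.23 ± 0.33 (SE, adjusted p = 0.0471), with -0.60 when NC replicate 2 was left out and -1.66 when NC replicate 1 was.

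*Vsig4*, a complement receptor for C3b-coated particles, was at 4.38 and 8.79 CPM in NC and at 4.09 and 3.28 CPM in the libraries labelled si*Airn*. NC replicate 1 was close to the libraries labelled si*Airn*, and the difference of -0.84 ± 0.34 was not called (edgeR adjusted p = 0.134; -0.25 without NC replicate 2). The scavenger receptor gene *Marco* was at 1.58 and 3.32 CPM in NC and at 1.33 and 1.70 CPM in the others, so that the groups overlapped (-0.70 ± 0.42, edgeR adjusted p = 0.282; -0.06 without NC replicate 2). The Kupffer-restricted genes thus had nearly the same replicate ratio. NC replicate 2 over NC replicate 1 was 2.10 for *Marco* (95% interval 1.32 to 3.45), 2.01 for *Vsig4* (1.52 to 2.68) and 2.09 for *Cd5l* (1.81 to 2.41), where the intervals are exact and cover counting error only. Of the 10746 genes that averaged at least 5 CPM, 10 had a ratio at least as high as that of *Cd5l*. The next highest ratios among the members were those of *Fcgr3* (1.93) and *Nr1h3* (1.71).

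The same ratio was 2.03 for *Folr2* and 1.51 for *Fcna*, which Kupffer cells express and which are no members, but 0.867 for *Clec4f*, a lectin gene restricted to Kupffer cells. *Clec4f* was at 4.84 and 4.20 CPM in NC and at 1.94 and 1.41 CPM in the libraries labelled si*Airn*, with no overlap and close replicates (-1.43 ± 0.27, edgeR adjusted p = 0.0176). Neither of the others was called: *Folr2* differed by -1.18 (edgeR adjusted p = 0.0983) without overlap, and *Fcna* by -0.16 (edgeR adjusted p = 0.691) with overlap. The gap between the NC libraries was therefore not seen in every Kupffer cell gene. Over the class, leaving out NC replicate 2 gave a median difference of -0.25, leaving out NC replicate 1 gave -1.25, and the summed FPKM of the class was 4.50% and 7.88% of the pan-macrophage sum in NC and 4.24% and 5.74% in the others. Why NC replicate 2 differed was not tested.

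**Figure D3:**
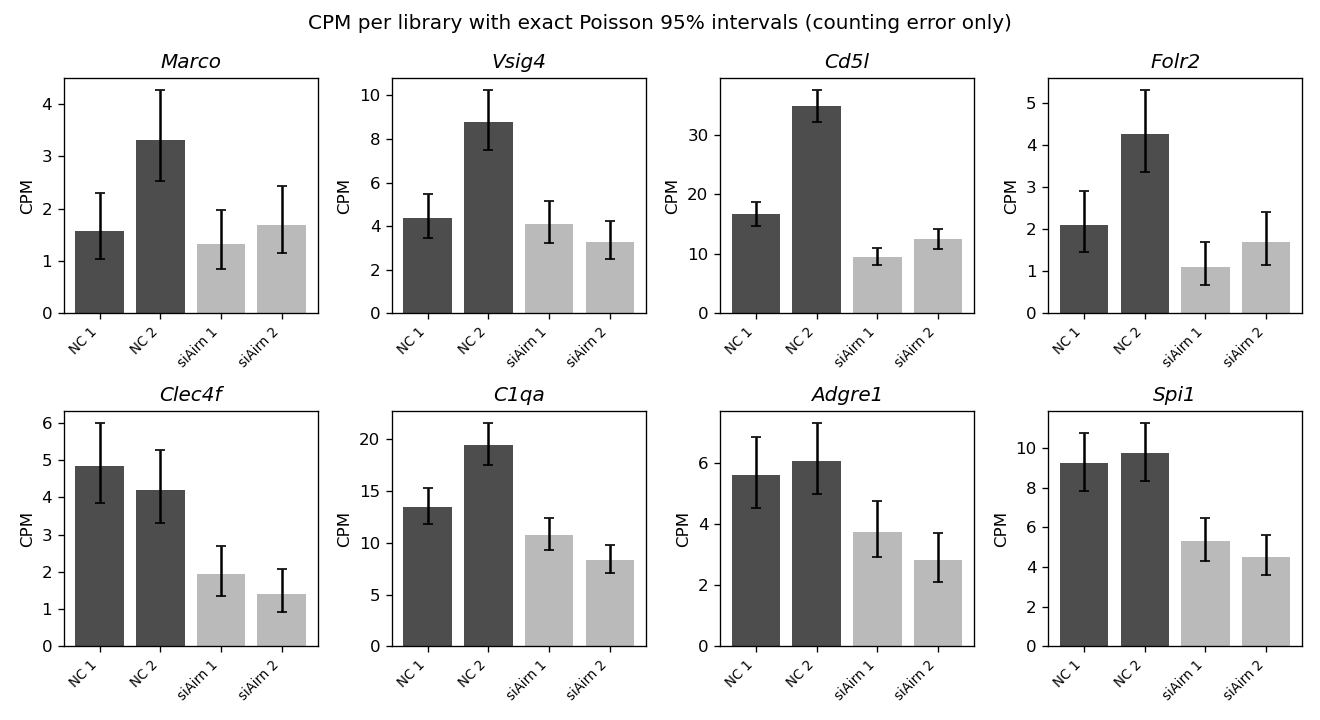
CPM in each library of the Kupffer-restricted genes *Marco*, *Vsig4* and *Cd5l*, the Kupffer cell genes *Folr2* and *Clec4f*, and, for comparison, *C1qa*, *Adgre1* and *Spi1*; dark bars are NC, light bars the libraries labelled siAirn, and lines are exact Poisson 95% intervals. NC replicate 2 is about 2-fold above NC replicate 1 for the first 4 genes, and the NC bars are near each other for *Clec4f*, *Adgre1* and *Spi1*.

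Of the surface receptors of the pan-macrophage class, *Adgre1* and *Msr1* fell and *Csf1r* did not pass the test. *Adgre1*, which encodes the F4/80 antigen used to identify mouse macrophages, was at 5.60 and 6.08 CPM in NC and at 3.76 and 2.83 CPM in the libraries labelled si*Airn* (-0.82 ± 0.22, edgeR adjusted p = 0.0435). The groups did not overlap. *Csf1r*, the receptor for the macrophage growth factors CSF1 and IL-34, was at 12.96 and 15.2 CPM in NC and at 11.5 and 8.08 CPM in the others. The difference was -0.53 ± 0.18 (edgeR adjusted p = 0.0941), and 15.1% of the exonic bases of *Csf1r* lie opposite exons of *Hmgxb3*. The difference was -0.30 with si*Airn* replicate 2 left out, and -0.80 and called with si*Airn* replicate 1 left out. *Msr1*, the class A scavenger receptor that LSEC also carry, had the smallest adjusted p of the members: 73.9 and 98.0 CPM in NC against 48.5 and 46.7 CPM (-0.85 ± 0.13, adjusted p = 0.0112 by edgeR).

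With all 4 libraries, *Trem2* had the largest fall of all members. *Cd5l* fell more without NC replicate 1 (-1.66 against -1.48) and without si*Airn* replicate 2 (-1.44 against -1.10). It fell less than *Trem2* with either of the other libraries left out. *Trem2* encodes a receptor for lipids and lipoproteins that signals through the adaptor TYROBP (DAP12). Its level was 4.90 and 5.75 CPM in NC and 2.49 and 1.64 CPM in the libraries labelled si*Airn*, a difference of -1.36 ± 0.27 (edgeR adjusted p = 0.0199), without overlap. *Tyrobp* fell from 8.40 and 10.7 CPM to 5.70 and 4.92 CPM (-0.85 ± 0.18, adjusted p = 0.0251 by edgeR). The FPKM ratio of *Trem2* to *Tyrobp* was 0.268 and 0.246 in NC and 0.199 and 0.154 in the others, without overlap, and this ratio was not tested. *Fcer1g*, the signalling chain of activating Fc receptors, fell from 33.3 and 31.2 CPM to 24.5 and 19.1 CPM (-0.56 ± 0.13, edgeR adjusted p = 0.0287).

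Of the Fc receptors that pair with this chain, *Fcgr1*, the high-affinity IgG receptor, was at 4.79 and 6.14 CPM in NC and at 2.71 and 2.20 CPM in the libraries labelled si*Airn* (-1.15 ± 0.24, edgeR adjusted p = 0.0233). *Fcgr3*, a low-affinity IgG receptor, was at 4.55 and 8.76 CPM in NC and at 3.62 and 3.64 CPM in the others, and was not called (-0.89 ± 0.32, edgeR adjusted p = 0.0986). Its NC replicates differed as those of the Kupffer-restricted genes did, and its difference was -0.34 with NC replicate 2 left out and -1.29 with NC replicate 1 left out. *Fcgr3* shares 12.8% of its 50-base windows with *Fcgr2b*, the inhibitory receptor of LSEC, which was at 462 and 516 CPM in NC and at 277 and 281 CPM in the others. How reads were divided between the pair was not tested.

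The C1q chains, which macrophages secrete to start the classical complement pathway, lay lower in both libraries labelled si*Airn*, and 2 of the 3 were called. *C1qa* was at 13.5 and 19.5 CPM in NC and at 10.8 and 8.37 CPM in the libraries labelled si*Airn* (-0.78 ± 0.21, edgeR adjusted p = 0.0448; -0.49 without NC replicate 2). *C1qb* was at 10.7 and 14.1 CPM against 9.46 and 6.05 CPM, and this difference was not called (-0.68 ± 0.23, edgeR adjusted p = 0.0918); it was -0.39 with si*Airn* replicate 2 left out, and -1.04 and called with si*Airn* replicate 1 left out. *C1qc* was at 15.0 and 20.3 CPM against 11.7 and 8.08 CPM (-0.84 ± 0.21, edgeR adjusted p = 0.0391). For all 3 chains the groups did not overlap, and NC replicate 2 was the highest library and the second library labelled si*Airn* the lowest. Their proportions hardly moved: *C1qa* made up between 33.2% and 36.5% of the summed FPKM of the chains in the 4 libraries, *C1qb* between 26.3% and 29.8%, and *C1qc* between 36.5% and 38.8%. The calls of *C1qa* and *C1qc* were lost when counts were corrected for GC content and length, with differences of -0.53 (edgeR adjusted p = 0.126) and -0.61 (edgeR adjusted p = 0.108).

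Further pan-macrophage members encode lysosomal and degradative proteins. *Ctss*, a cysteine protease that trims the invariant chain in antigen presentation, was at 44.5 and 38.3 CPM in NC and at 25.9 and 17.0 CPM in the libraries labelled si*Airn* (-0.95 ± 0.18, edgeR adjusted p = 0.0199). *Cd68*, a lysosomal glycoprotein, was at 38.9 and 53.2 CPM against 27.9 and 28.9 CPM (-0.70 ± 0.15, edgeR adjusted p = 0.0234; -0.45 without NC replicate 2). *Lyz2*, the lysozyme of myeloid cells, was at 119 and 131 CPM against 93.8 and 75.0 CPM (-0.57 ± 0.11, edgeR adjusted p = 0.0203). None of these genes overlapped between groups, and in *Ctss* NC replicate 1 was the higher of the NC libraries, unlike in *Cd68* and *Lyz2*. *Gpnmb*, a glycoprotein of lipid-laden and phagocytic macrophages, was at 35.9 and 30.0 CPM against 24.7 and 20.3 CPM (-0.55 ± 0.13, edgeR adjusted p = 0.0338). The remaining pan-macrophage genes, the pore-forming *Mpeg1* (-0.34) and the actin-binding *Aif1* (-0.28), were not called. *Mpeg1* was at -0.20 with si*Airn* replicate 2 left out and at -0.49 with si*Airn* replicate 1 left out. *Aif1* lay at or below 1.11 CPM in every library and ran from -0.79 to 0.13 with 1 library left out.

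Among pan-leukocyte genes *Spi1*, which encodes PU.1, had the smallest adjusted p. It was at 9.22 and 9.73 CPM in NC and at 5.31 and 4.52 CPM in the libraries labelled si*Airn* (-0.95 ± 0.16, edgeR adjusted p = 0.0138). The replicates of each group were close, with means of 9.47 ± 0.359 and 4.92 ± 0.557 CPM (SD, n = 2), and leaving out any library kept the difference between -0.83 and -1.07. *Laptm5*, a lysosomal membrane protein of haematopoietic cells, fell from 17.0 and 20.9 CPM to 13.1 and 10.2 CPM (-0.71 ± 0.16, adjusted p = 0.0290 by edgeR).

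The general leukocyte marker *Ptprc* was not called. It was at 3.97 and 3.98 CPM in NC and at 3.49 and 3.22 CPM in the others, a difference of -0.24 ± 0.21 (edgeR adjusted p = 0.447). With the GC and length correction *Ptprc* was at -0.49 and not called, and *Spi1* was at -0.76 and called. The difference between the changes of *Ptprc* and *Spi1* was not tested. *Itgb2*, the beta chain of leukocyte integrins, was at 13.01 and 13.7 CPM in NC against 10.2 and 7.86 CPM (-0.56 ± 0.15, edgeR adjusted p = 0.0490). *Itgam*, its alpha chain partner in complement receptor 3, was at 5.25 and 5.69 CPM against 6.09 and 3.84 CPM. The groups overlapped for *Itgam* because the libraries labelled si*Airn* lay on either side of NC (-0.14 ± 0.25, edgeR adjusted p = 0.729), and 72.4% of its 50-base windows are shared with *Gm49368*, an annotated gene that overlaps it.

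Of the oxidase subunits, the broadly expressed *Cyba* (p22phox) was at 70.3 and 86.5 CPM in NC and at 48.1 and 57.0 CPM in the libraries labelled si*Airn* (-0.58 ± 0.12, edgeR adjusted p = 0.0240), but at -0.34 and not called with the GC and length correction. Its catalytic partner in phagocytes, *Cybb* (gp91phox), was at 8.05 and 8.13 CPM against 6.80 and 7.74 CPM and was not called (-0.15 ± 0.15, edgeR adjusted p = 0.505). With the same correction *Cybb* was at -0.31 and not called. It was at -0.06 with si*Airn* replicate 1 left out and at -0.25 with si*Airn* replicate 2 left out. In FPKM *Cyba* exceeded *Cybb* 63.3 and 77.4 times in NC and 51.9 and 53.4 times in the others. The other pan-leukocyte genes were not called: *Rac2* (-0.76), *Cd52* (-0.72), *Coro1a* (-0.60), *Cd53* (-0.52) and *Lcp1* (-0.22). In all 5 both libraries labelled si*Airn* lay below both NC libraries, and the edgeR adjusted p lay between 0.0615 for *Rac2* and 0.172 for *Cd52*. With 1 library left out, *Cd52* ran from -1.11 to -0.42 and *Cd53* from -0.71 to -0.31. Per length, *Lcp1* had a mean of 42.2 FPKM in NC, against 0.805 FPKM for *Ptprc*. Which cells the *Lcp1* RNA came from was not tested.

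The 6 broadly expressed genes split. *Id2*, a helix-loop-helix inhibitor, was at 51.6 and 62.6 CPM in NC and at 37.3 and 41.3 CPM in the libraries labelled si*Airn* (-0.54 ± 0.11, edgeR adjusted p = 0.0216). *Lgals3*, a galactose-binding lectin, was at 215 and 269 CPM against 165 and 186 CPM (-0.46 ± 0.12, edgeR adjusted p = 0.0374). Both fell without overlap between the groups, though *Lgals3* was at -0.27 and not called with the GC and length correction, and at -0.29 without NC replicate 2. *Axl*, a receptor kinase that binds the bridging molecule GAS6 on dying cells, was at 278 and 332 CPM in NC and at 315 and 451 CPM in the others, and it was not called (0.33 ± 0.16, edgeR adjusted p = 0.209). Its difference was 0.05 with si*Airn* replicate 2 left out, and 0.56 and called with si*Airn* replicate 1 left out. The related receptor *Mertk* (0.12 ± 0.16) and the nuclear receptor *Nr1h3* (-0.09 ± 0.27), a factor of Kupffer cell identity, were not called either, and the groups overlapped for all 3. The sign was not stable for *Mertk*, which was -0.09 without NC replicate 2, nor for *Nr1h3*, which was 0.35 without it.

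The replicates of a label also differed from each other, in an order that was not the same in every class. NC replicate 2 was above NC replicate 1 for 30 of the 37 members, with a median ratio of 1.20, against 50.2% of all genes tested and a median of 1.00. The second library labelled si*Airn* was below the first for 27 of the 37 members (median ratio 0.813). Over all genes tested it was above the first for 49.1%, with a median ratio of 0.998. This order held for 13 of 15 pan-macrophage and 12 of 13 pan-leukocyte genes. Kupffer-restricted and broadly expressed genes did not share this order, since the second library was the higher one for 2 of 3 and 5 of 6. The 95% counting interval of the ratio lay above 1 for 20 members and below 1 for 3 in NC, and above 1 for 4 and below 1 for 14 in the libraries labelled si*Airn*. Relative to the NC mean, the median pan-macrophage gene was at 65.5% and 54.4% in the 2 libraries labelled si*Airn*; there, the median pan-leukocyte gene was at 75.9% and 58.9%, and the median Kupffer-restricted gene at 54.3% and 49.8%, with NC replicate 1 itself at 64.7% for this last class.

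**Figure D4:**
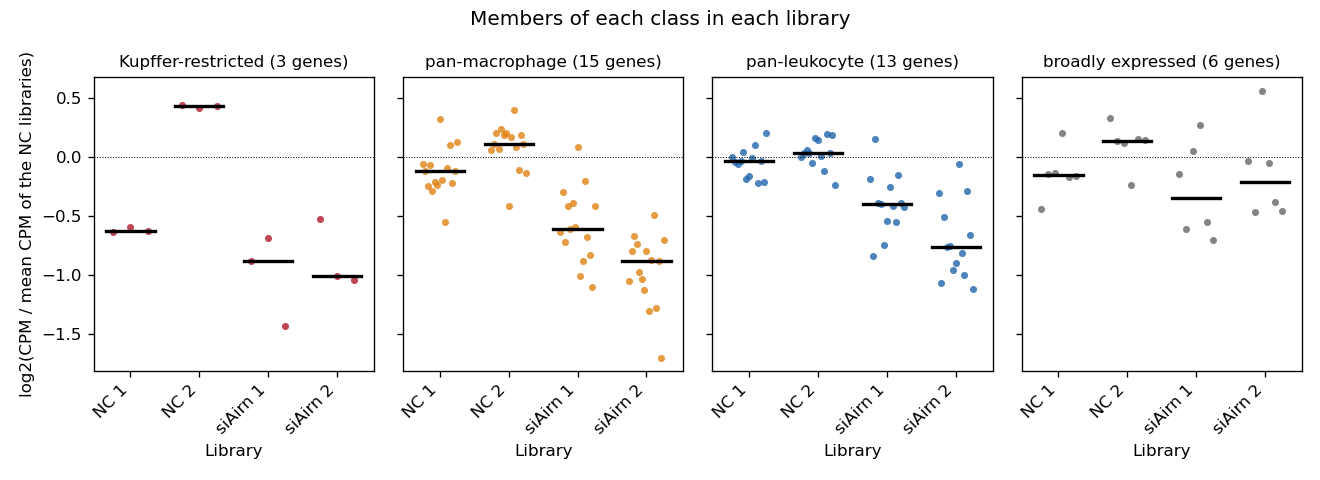
Each of the 37 members tested in each library, as log2 of its CPM over the mean CPM of the NC libraries, by class; bars are class medians. In pan-macrophage and pan-leukocyte genes both NC medians lie near 0 and both medians of the libraries labelled siAirn below them, while for Kupffer-restricted genes NC replicate 1 lies at -0.63.

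Further genes of the same cells were examined from a separate list. Of 27 other Kupffer cell and macrophage genes tested, 9 were called lower and 1 higher, with a median of -0.56. The most abundant of them were the lysosomal protease *Lgmn* (298 and 336 CPM in NC against 217 and 232 CPM; -0.50, edgeR adjusted p = 0.0120) and the transcription factor *Irf8* (137 and 135 against 101 and 83.2 CPM; -0.56, edgeR adjusted p = 0.0137), which are not confined to macrophages. The exception was the iron exporter *Slc40a1*, which rose from 64.1 and 56.2 CPM to 83.9 and 72.8 CPM (0.38 ± 0.10, edgeR adjusted p = 0.0407).

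Macrophage growth factors, chemokines and bridging ligands, most of them ligands of member receptors, did not share a direction. *Csf1*, a ligand of *Csf1r*, was at 779 and 832 CPM in NC and at 1033 and 1306 CPM in the libraries labelled si*Airn*, and was called higher (0.54 ± 0.11, edgeR adjusted p = 0.0225). *Gas6*, a ligand of *Axl* and *Mertk*, was called lower, from 54.2 and 50.5 CPM to 33.1 and 28.4 CPM (-0.77 ± 0.10, edgeR adjusted p = 0.0075). *Ccl2*, a ligand of *Ccr2*, was lower as well (742 and 782 against 568 and 602 CPM; -0.38 ± 0.06, edgeR adjusted p = 0.0134). The other 5 genes of this list that were tested were not called (*Il34*, *Csf2*, *Pros1*, *Cx3cl1* and *Ccl7*, of which *Csf2* has no receptor among the members), and *Ccr2* itself was near 0 as given above. *Pros1*, the most abundant of these 5, exceeded *Gas6* in every library. It was at 443 and 407 CPM in NC and at 397 and 345 CPM in the others (-0.20, edgeR adjusted p = 0.157).

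Markers of other cells were counted beside the members. No gene was called in the edgeR fit described above among those tested for T and NK cells (3 of 12 listed), B and plasma cells (5 of 7), neutrophils (2 of 9), monocytes (3 of 6), dendritic cells (5 of 8) and cholangiocytes (5 of 6). Of these 23 genes, 5 had an unadjusted p under 0.05 by edgeR (*Ace*, *Cd3e*, *Cd79b*, *Krt19* and *Lck*), against 4631 of all 13628 genes tested. Among the 23, DESeq2 called 0 with 17 adjusted p missing, and limma on log2(FPKM + 1) called 1 of the 10 it kept. Other edgeR fits called some of them: 5 with the replicate block, 6 with the block and the GC and length correction, 2 without siAirn replicate 1, and 1 each with the correction alone and with at least 10 counts in every library. Neutrophil markers summed to between 1.15 and 2.23 CPM over the libraries with *Mpo* at 0 in each, T and NK markers to between 10.6 and 12.7 CPM, and B and plasma cell markers to between 8.90 and 17.3 CPM. Dendritic cell markers summed to between 43.2 and 54.0 CPM, of which *Zbtb46* alone made up between 31.7 and 39.8 CPM. Monocyte markers summed to between 74.2 and 91.1 CPM, of which *Plac8* alone made up between 67.2 and 87.1 CPM. Stellate cell and fibroblast markers were called higher in 5 of 14 cases (median 0.39), with sums of 1777 and 2153 CPM in NC and 2081 and 2694 CPM in the others. Hepatocyte markers were called higher in 1 of 13 cases (median 0.39), with sums of 645 and 822 CPM against 890 and 1164 CPM. The share of hepatocyte markers called is close to the 8.27% of all genes called higher. None of the hepatocyte, stellate cell and fibroblast markers tested had a negative log2 fold change, beside a median of 0.0013 over all genes tested. Differences between lists were not tested. The part of these other cells, and of the share of each in the preparation, in the members' values was not tested.

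**Figure D5:**
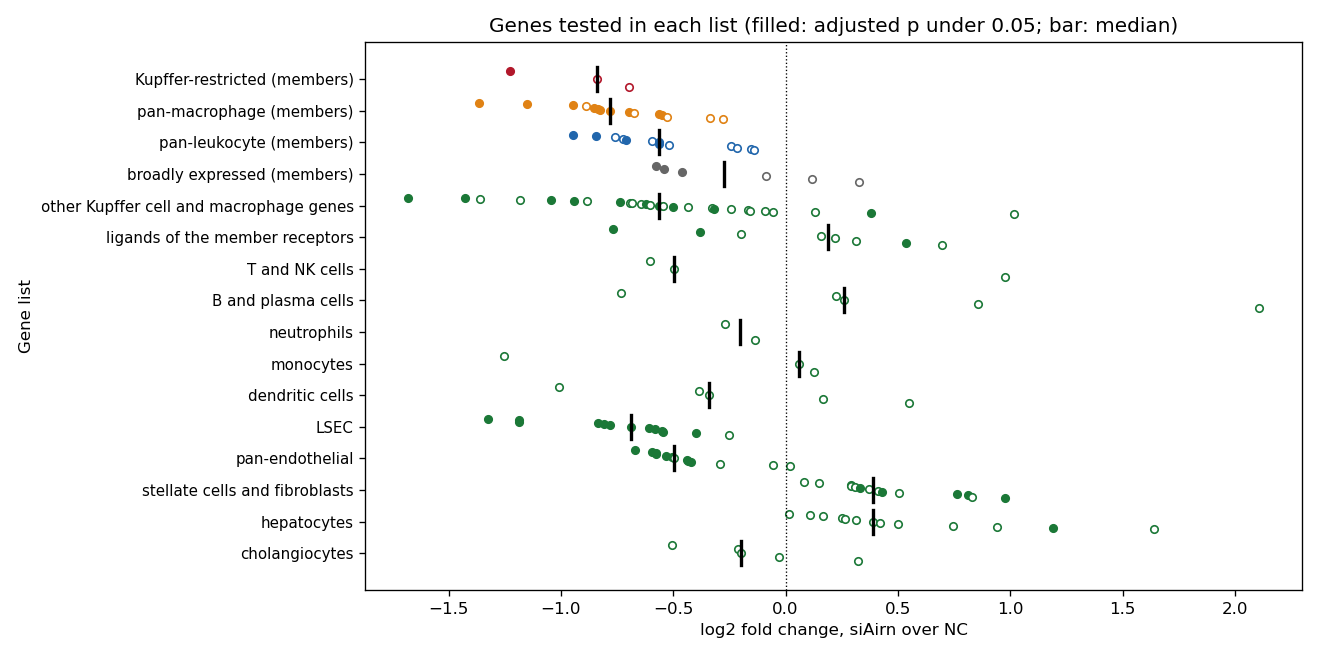
Log2 fold change of each gene tested, libraries labelled siAirn over NC, for the 4 member classes and 12 other lists; filled points have an adjusted p under 0.05 and black bars are medians. The macrophage, pan-leukocyte, LSEC and pan-endothelial lists have medians between -0.84 and -0.50, and those of stellate cells and hepatocytes are at 0.39.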

How the data were processed

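RNA-seq was made from 4 libraries, 2 labelled NC and 2 labelled si*Airn*, read as single ends of 50 bases per the labels. The authors deposited 1 table. Its estimated counts, as deposited, are not normalized, and include fractions. The second kind of value has no unit in the header and was taken for FPKM, made by the authors, since for most genes though not all, count divided by value and library total gives nearly the same length in every library, and the values of a library do not sum to the fixed total of TPM. Group means in the table were not used. The submitters' processing notes name BWA, Bowtie2 and RSEM, and the build hg19 although the samples are mouse. Their roles, and any use of strand, are not given in the sources used here.

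Counts were rounded and tested in R 4.3.3 with edgeR 4.0.16 (TMM factors 0.985 to 1.02, filterByExpr, quasi-likelihood test, no covariate, Benjamini-Hochberg adjustment over 13628 genes). CPM values are TMM-scaled. The common biological coefficient of variation was 0.0754. Alternatives were DESeq2 1.42.0, upper-quartile factors, other filters, limma 3.58.1 on log2(FPKM + 1) and log2(FPKM + 0.1), a replicate block, a spline correction for GC content and length from GENCODE M21 (95.0% of tested genes) and leaving out each library, which assumes that the lone library varies like the other group. The scripts were tested on simulated data.

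The members, lists and tests were chosen with earlier results of these data known. Values in every library are given for called members with a mean of at least 5 CPM, defining genes of a class, and partners of a complex; those of *Marco*, *Vsig4*, *Fcgr1*, *Fcgr3*, *Axl* and *Folr2*, and the replicate ratios, were chosen after their values were seen. Sharing of sequence was counted in windows of 50 bases over GENCODE M21 transcripts. Promoters are those of RefSeq.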

Additional observations from a re-analysis of the deposited data

How the results depend on the processing

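Of 37 members tested, 19 were called lower. The count was 8 with the GC and length correction (5.29% of all genes called lower, against 8.56%). With DESeq2 it was 12 (6.70%), where 16 members had no adjusted p. It was also 12 with limma on log2(FPKM + 1) or log2(FPKM + 0.1) (7.03% and 6.99%). With limma on all genes above 0 it was 0, and that fit called 0 of 18042 genes. There, 19 members were lower at an unadjusted p under 0.05 by limma, against 4418 of all genes in either direction. Leaving out 1 library gave 0 to 23: 1 without NC replicate 1 (0.236% of all genes called lower), 0 without NC replicate 2 (0%), 23 without siAirn replicate 1 (8.73%) and 12 without siAirn replicate 2 (5.20%). The Kupffer-restricted count of 1 became 0 without a filter, with the GC and length correction, with DESeq2 and with each limma fit, 2 with the replicate block or the 1.4-fold threshold, and 0 to 1 without a library. The pan-macrophage count of 10 became 6 with the correction and with limma, 0 with limma on all genes, and 0 to 13 without a library. The pan-leukocyte count of 5 became 1 with the correction, 2 with DESeq2, 0 with limma on all genes, 8 with the replicate block, and 0 to 7 without a library. The broadly expressed count of 3 became 1 with the correction, 0 with limma on all genes, and 0 to 3 without a library. The causes were not tested.

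Replicate numbers were not taken to pair the samples (correlation of deviations 0.221 with 2 pairs). The replicate block called 27 members lower and 1 (*Axl*) higher, the same with the correction added, against 17.9% of all genes called lower; all 19 calls were among them. *Axl* was also higher without siAirn replicate 1.

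Class medians stayed negative in every fit. The correction moved the pan-macrophage median from -0.78 to -0.55 (-0.56 with the block) and the broadly expressed one from -0.28 to -0.11 (-0.10). Limma on all genes gave -0.30 for Kupffer-restricted and -0.59 for pan-macrophage genes. Without a library the medians ran from -0.79 to -0.49 for all members, -1.25 to -0.25 for Kupffer-restricted, -0.89 to -0.60 for pan-macrophage, -0.76 to -0.40 for pan-leukocyte and -0.52 to -0.19 for broadly expressed genes. Signs reversed for uncalled genes only: *Nr1h3* (0.091 and 0.11 with the correction, -0.42 to 0.35 without a library), *Aif1* (-0.79 to 0.13), *Itgam* (-0.51 to 0.15) and *Mertk* (-0.086 to 0.35). Depth limits *Timd4*, *Cd163*, *Cx3cr1* and *Ccr2*, which had at most 9 counts in a library.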
